A study of Mus musculus with 4 samples.

Results

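Of the 2391 boundaries of topologically associating domains (TADs) listed for adult bone marrow haematopoietic stem cells (HSCs) of the mouse, 281 lay more than 100 kb from every boundary listed for fetal liver HSCs. They were chosen by that distance, measured on the same chromosome over chromosomes 1 to 19 and X, and a boundary was any distinct start or end of a TAD. The 281 boundaries were 11.8% of the adult list, and 270 of them lay inside fetal TADs while 11 lay where the fetal list has no TAD. Because the distance to the fetal list chose them, that distance is given as a description and supports nothing.

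A TAD is a stretch of chromosome whose parts touch one another in the nucleus more often than they touch the neighbouring stretches. In mammalian cells, cohesin is thought to extrude chromatin into loops until it meets the DNA-binding protein CTCF. Many TAD boundaries hold CTCF sites, and those at opposite ends of a TAD often face each other. A boundary limits contacts between enhancers and promoters on its opposite sides. HSCs divide and expand in the fetal liver, whereas most adult marrow HSCs are quiescent, and the shift brings changes in gene use and in lineage output.

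The series asked how chromatin is arranged in space in HSCs before and after birth. Hi-C, which joins and sequences DNA ends that lie close together in fixed nuclei, was applied to 4 samples of strain B6129SF1. The fetal group was 2 samples of liver taken on embryonic day 14.5, and the adult group was 2 samples of bone marrow from mice 6 to 8 weeks old. No genetic change or treatment is given for either group, and all samples were sorted as Lin-Sca1+cKit+CD135-, a gate that as background knowledge also takes in multipotent progenitors. Each cell type is represented by 1 TAD list without replicates, so differences between fetal and adult HSCs are given without a replicate error or a test. The lists hold no expression, so the labelled cell type was not checked against marker genes. The sequencing depth is unknown, and how far a difference in depth accounts for a boundary missing from the fetal list was not tested.

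Positions are those of mm9, the build named in the submitters' processing notes, and a boundary is given by the last base of the TAD to its left. Nearly all coordinates lie on a 10 kb grid, so distances move in steps of 10 kb. The gene and promoter tables at hand were of another build, so genes and sequence at these boundaries were not analysed here.

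Most of the 281 boundaries lay inside a fetal TAD, and the rule keeps them away from its edges. Of all 2391 adult boundaries, 1624 (67.9%) lay inside a fetal TAD and 721 (30.2%) on a fetal edge, where the rule allows none. Few adult boundaries lay elsewhere, so a high share inside follows largely from the rule. The 270 inside fetal TADs made up 96.1% of the 281 (95% exact Clopper-Pearson interval 93.1 to 98.0; this and later intervals cover counting error only and treat boundaries as independent). Their distance to the nearest fetal boundary ranged from 110 to 2110 kb, with a median of 460 kb and quartiles of 210 and 590 kb. Among the other 2110 adult boundaries, by the same rule no farther than 100 kb, the median distance was 10 kb. The cut at 100 kb fell on a slope and not in a gap. It left 8 adult boundaries at exactly 110 kb and 8 at 120 kb just outside, and 12 at 100 kb and 13 at 90 kb just inside. Among those at 110 kb were the boundaries at 165725000 on chromosome 1, 172035000 on chromosome 2 and 140965000 on chromosome 7. Those at 100 kb, and so not counted, included 105985000 on chromosome 2 and 21425000 and 106935000 on chromosome 4.

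The distances inside fetal TADs did not fall off evenly. There were 65 boundaries at over 100 and up to 200 kb, 32 at up to 300 kb and 19 at up to 400 kb. The count was higher again beyond that, with 49 at over 400 and up to 500 kb and 45 at up to 600 kb. A further 29 lay at up to 800 kb, 18 at up to 1000 kb and 13 beyond 1000 kb. Adult TADs in general were also fewer up to 400 kb long, 271 of 2310, than at over 400 and up to 600 kb, 552. How far the distances follow those lengths was not tested. Near and far boundaries had different shares of fetal neighbours that lack an adult partner, a contrast that the distances partly build in. At up to 200 kb, such a partner would have to be another adult boundary at most 300 kb from the first. Adult TADs that short are few. Of the 65 at up to 200 kb, 24 (36.9%, 25.3 to 49.8) had as their nearest fetal boundary one that itself lacked an adult boundary within 100 kb. At those places the lists show an adult boundary and a fetal boundary over 100 and up to 200 kb apart, each without a partner. Of the 154 at over 400 kb, 15 (9.74%, 5.55 to 15.6) had such a neighbour, and the other 139 stood apart from a fetal boundary that the adult list also has.

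**Figure D1:**
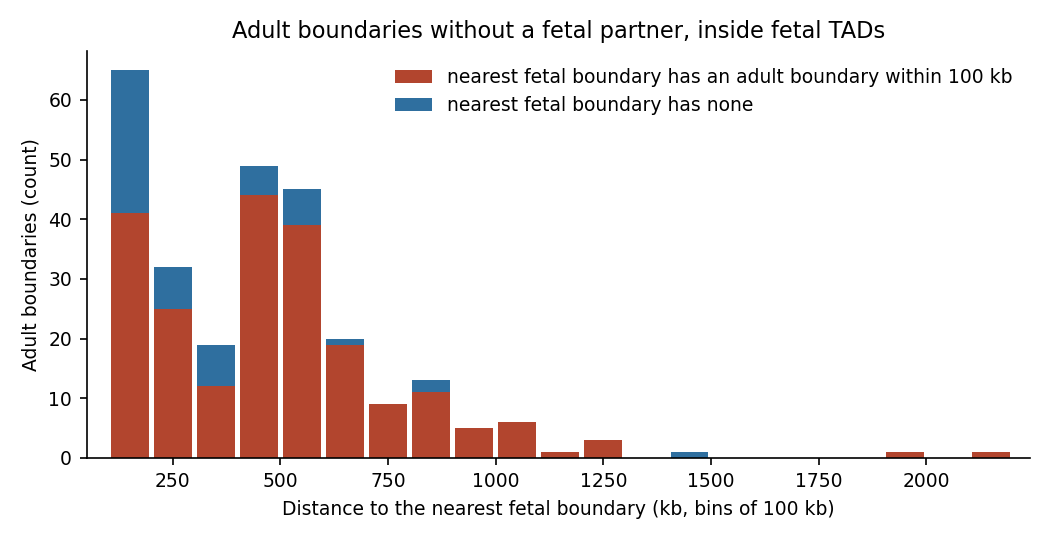
Number of adult boundaries inside fetal TADs (vertical axis) by distance to the nearest fetal boundary in kb (horizontal axis, bins of 100 kb), for the 270 boundaries over 100 kb from any fetal one. Red marks boundaries whose nearest fetal boundary has an adult boundary within 100 kb and blue those whose nearest fetal boundary has none. The first bin holds 65, of which 24 are blue, the bin of 300 to 400 kb holds 19, and that of 400 to 500 kb holds 49.

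Over all 270, the nearest fetal boundary had an adult partner in 217 (80.4%, 75.1 to 84.9). Both ends of the fetal TAD around the boundary were kept within 100 kb in the adult list for 186 boundaries (68.9%, 63.0 to 74.4). For 80 (29.6%, 24.2 to 35.5) 1 end was kept, and for 4 neither end was. Counted by fetal TAD, both ends were kept in 169 of the 239 that held such a boundary (70.7%, 64.5 to 76.4), against 1643 of the other 2079 (79.0%, 77.2 to 80.8). This contrast is partly built in, since an adult boundary over 100 kb inside a fetal end can stand in place of that end. Adult TADs holding a fetal boundary without an adult partner had a similar contrast. Both ends were kept in 154 of 214 (72.0%, 65.4 to 77.9), against 1648 of 2096 (78.6%, 76.8 to 80.4), intervals that overlap. Counted by boundary, the share with both ends kept moves with the distance that counts as kept, from 45.7% at 40 kb to 81.0% at 200 kb, with the boundaries chosen anew at each distance. The median distance was 480 kb (order-statistic interval 460 to 510) where both ends were kept and 335 kb (240 to 460) where 1 was.

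The commonest arrangement was a fetal TAD where the adult list has exactly 2 TADs. The opposite direction, given below, had a similar share. The 270 boundaries lay in 239 fetal TADs, or 10.3% of the 2318. A single such boundary lay in 210 of these fetal TADs, 2 lay in each of 27, and 3 in each of 2. In 153 of the 239 (64.0%, 57.6 to 70.1) the fetal TAD held 1 and had both ends kept. In these 153, the fetal TAD had a median length of 1350 kb, and the adult TADs on either side of the boundary had medians of 460 kb for the shorter and 940 kb for the longer. The lengths of the adult pair summed to within 40 kb of the fetal length in 133 of the 153, a match that the choice of fetal TADs with both ends kept largely fixes. The split was mostly unequal. The shorter adult TAD made up a median of 33.5% of the pair (30.2 to 36.0), at least 40% in 48 cases and under 20% in 34. It was shorter than 300 kb in 50 cases.

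Within their fetal TADs the boundaries showed no lean to either end, with a median place at 50.0% of the length from the start (45.3 to 54.5). Measured from the nearer end, 73 of the 270 lay at over 40 and up to 50% of the length, 64 at over 30 and up to 40%, 62 at over 20 and up to 30%, 52 at over 10 and up to 20%, and 19 at up to 10%. The last count, and in shorter fetal TADs those next to it, is held down by the rule, which bars the outer 100 kb at each end.

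Among the boundaries inside fetal TADs, the 8 farthest from any fetal boundary are given as examples. Picked for distance, they can lie only in long fetal TADs and well away from the ends. They do not show how long fetal TADs in general were divided. On chromosome 3 the adult boundary at 5125000 lay 2110 kb from the nearest fetal one, at 50.1% of the fetal TAD from 3005001 to 7235000, with adult TADs of 2120 and 2150 kb beside it. On chromosome 5 the boundary at 113725000 lay 1940 kb from a fetal boundary and parted adult TADs of 1930 and 1360 kb. On chromosome 6 the boundary at 79935000 lay 1470 kb away. It was the start of an adult TAD of 830 kb that follows a stretch in which the adult list has no TAD, so there the lists differ in coverage as well as in the boundary.

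The next 5 lay 1100 to 1270 kb from a fetal boundary. The boundary at 124445000 on chromosome 8 parted adult TADs of 1260 and 1650 kb inside a fetal TAD of 2920 kb. The one at 164975000 on chromosome X parted adult TADs of 1270 and 800 kb inside a fetal TAD of 2930 kb. That at 120145000 on chromosome 2 parted TADs of 1310 and 1150 kb inside a fetal TAD of 2450 kb. These 3 fetal TADs kept both ends in the adult list. At 16365000 on chromosome 9, in contrast, the adult TAD to the right was 3810 kb long and ran past the end of the fetal TAD at 18055000, an end that the adult list lacks. The boundary at 101375000 on chromosome 7 belonged to a fetal TAD with 3 such boundaries, described next.

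The 2 fetal TADs with 3 of these boundaries, and the 3 longest of the 27 with 2, differed in how the adult TADs lay over them. On chromosome 7 the fetal TAD from 100275001 to 104095000, 3820 kb long, held 3 of them, at 101375000, 103255000 and 103595000. Adult TADs of 1100, 1880, 340 and 500 kb filled it, with the outer ends at the same coordinates as those of the fetal TAD. On chromosome 11 the fetal TAD from 32225001 to 34635000, 2410 kb long, also held 3, at 32635000, 33055000 and 33595000. There the adult TADs were offset: the first, of 1090 kb, began 680 kb before the fetal TAD, and those of 420, 540 and 1060 kb followed. The fetal start at 32225000 thus had no adult partner, while the fetal end was kept.

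Another 3 long fetal TADs, with 2 such boundaries each, complete the set of 5. The one on chromosome 5 from 111785001 to 115975000 lay under adult TADs of 1930, 1360 and 900 kb, and their outer ends were 10 kb from the fetal ends. The one on chromosome 4 from 66255001 to 70045000 had neither end kept. Its adult boundaries at 66375000 and 69835000 lay 120 and 210 kb inside the fetal ends and enclosed an adult TAD of 3460 kb, so both lists have a long TAD there with different ends. The one on chromosome 6 from 78465001 to 81855000 had adult boundaries at 79935000 and 80765000 and an adult stretch without a TAD at its start.

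**Figure D2:**
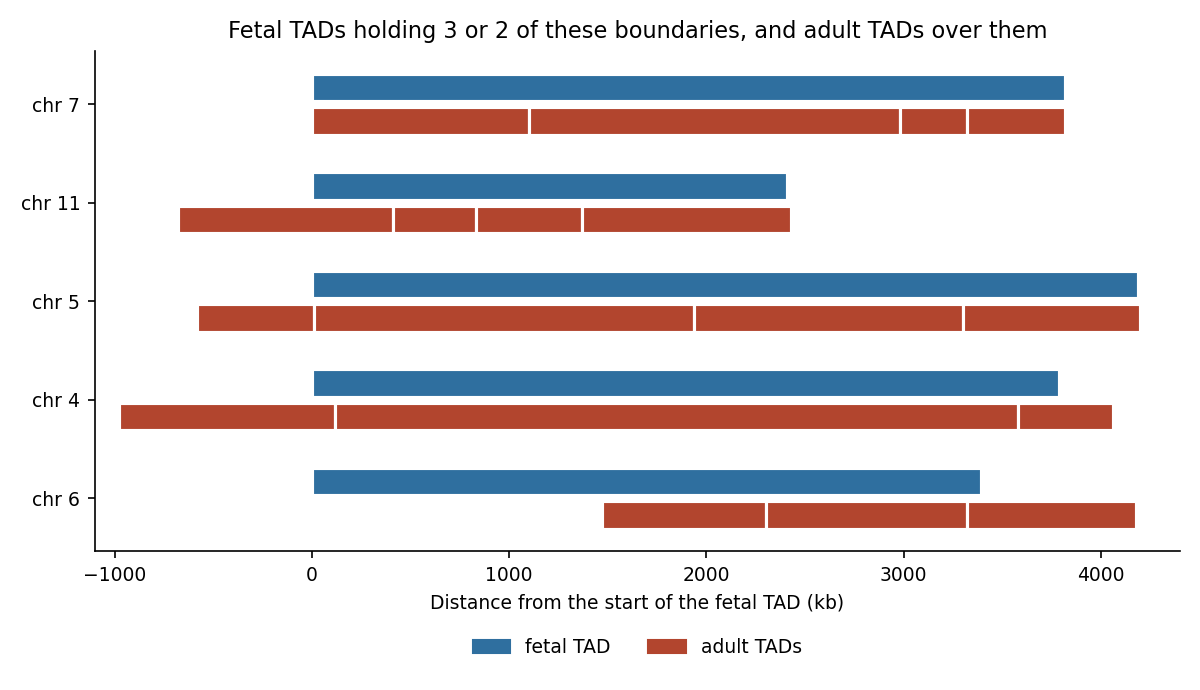
The 2 fetal TADs (blue) that hold 3 adult boundaries without a fetal partner (chromosomes 7 and 11) and the 3 longest of the 27 that hold 2, with the adult TADs (red) that overlap them, drawn to scale as distance in kb from the start of the fetal TAD; white lines part adjoining adult TADs. On chromosomes 7 and 5 the adult TADs share the outer ends of the fetal TAD to within 10 kb, on chromosome 11 the first adult TAD begins 680 kb earlier, on chromosome 4 both ends differ, and on chromosome 6 the adult list has no TAD over the first 1470 kb.

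Fetal TADs that held such a boundary were long. Their median length was 1340 kb (1240 to 1450), against 790 kb for all fetal TADs, and 181 of the 239 (75.7%) were longer than 1000 kb, against 823 of 2318 (35.5%). In the opposite direction, the 214 adult TADs holding a fetal boundary without an adult partner were long too. Their median was 1225 kb (1130 to 1370), against 760 kb for all adult TADs. The rule favours length, since a fetal TAD must exceed 200 kb to hold one and offers more room the longer it is. The counts were therefore set against the eligible interior, the part of each fetal TAD more than 100 kb from both ends. Per 10 Mb of this interior there were 1.47 boundaries overall (exact Poisson interval 1.30 to 1.66). The density was 1.26 (0.259 to 3.67, from 3 boundaries) in fetal TADs of up to 400 kb, 0.461 (0.185 to 0.949) in those of over 400 and up to 600 kb and 0.795 (0.454 to 1.29) in those of up to 800 kb. It was 1.49 (1.02 to 2.10) in those of up to 1000 kb and 2.17 (1.75 to 2.65) in those of over 1000 and up to 1500 kb. In longer fetal TADs it was 1.55 (1.14 to 2.06) up to 2000 kb, 1.74 (1.33 to 2.25) up to 3000 kb and 0.76 (0.405 to 1.30) above that. Density thus did not follow length throughout: in the class of over 3000 kb, which held 13 boundaries, it lay below that of 1000 to 1500 kb and its interval overlapped those of the classes up to 800 kb. The 27 fetal TADs with 2 such boundaries had a median length of 2110 kb, against 1270 kb for the 210 with 1.

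**Figure D3:**
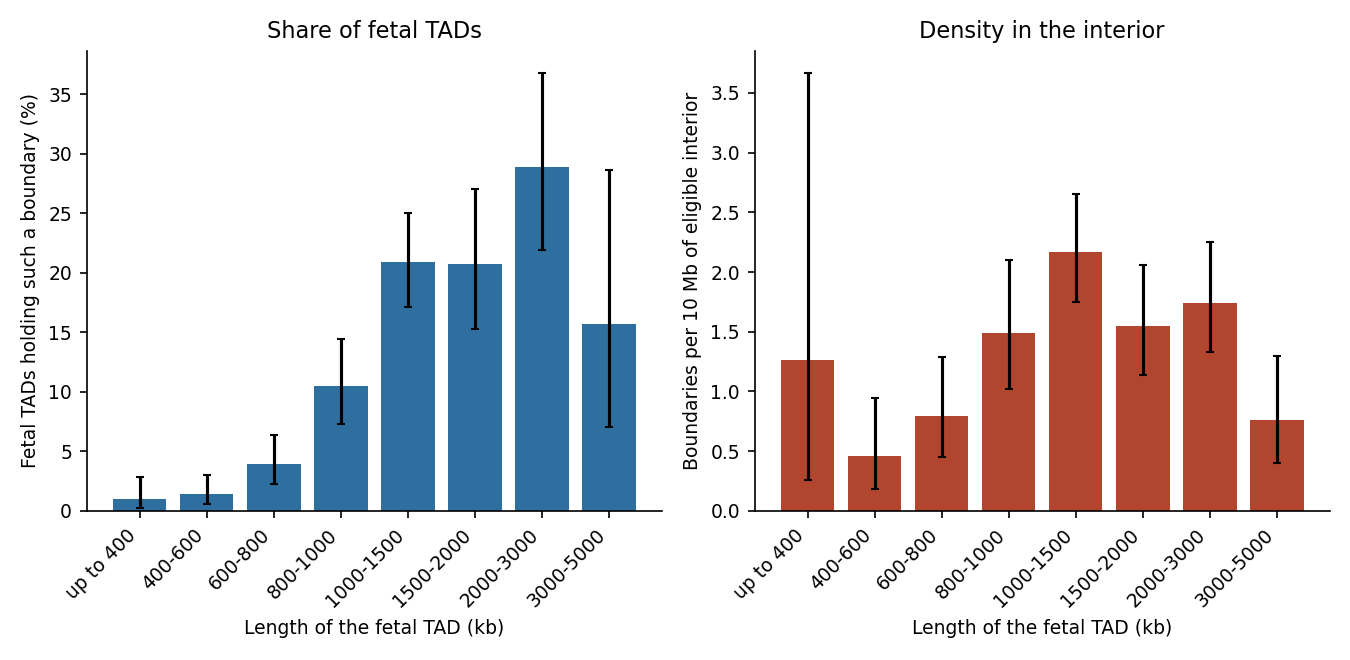
Fetal TADs by length class in kb. The left panel gives the share of fetal TADs holding at least 1 adult boundary without a fetal partner, in percent with exact Clopper-Pearson intervals, and the right panel the number of such boundaries per 10 Mb of eligible interior with exact Poisson intervals. The share is 0.99% up to 400 kb and 28.9% at 2000 to 3000 kb, while the density is highest at 1000 to 1500 kb, at 2.17.

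On the adult side, 508 of the 2310 adult TADs had at least 1 edge without a fetal partner, 467 of them at 1 edge and 41 at both. These 508 had a median length of 640 kb (600 to 690) and the remaining 1802 one of 790 kb (760 to 820). Short TADs made up more of them, with 69 of 508 (13.6%, 10.7 to 16.9) under 300 kb against 84 of 1802 (4.66%, 3.73 to 5.74). TADs over 2000 kb made up 6.5% (4.51 to 9.0) and 8.32% (7.09 to 9.70), intervals that overlap. In the opposite direction, 85 of 506 fetal TADs with an edge lacking an adult partner (16.8%) were under 300 kb, against 88 of 1812 (4.86%). Over 2000 kb these were 60 (11.9%) and 143 (7.89%). No test was made, since the TADs of 1 list are not replicates and an adult TAD that divides a fetal one is shorter by construction. The 41 adult TADs with both edges lacking a fetal partner had a median of 730 kb with a wide interval of 530 to 1110.

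**Figure D4:**
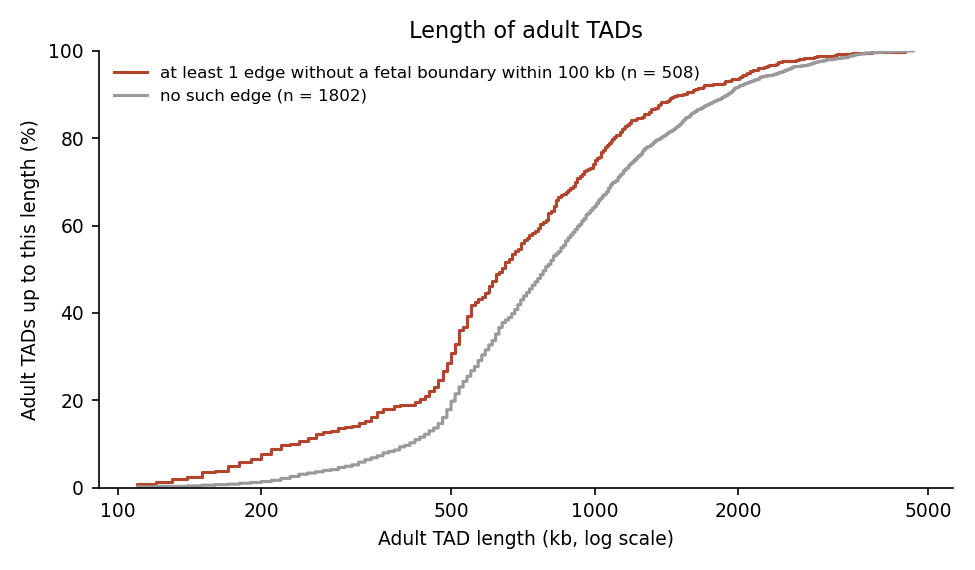
Cumulative share of adult TADs in percent (vertical axis) up to a given length in kb (horizontal axis, log scale), for the 508 adult TADs with at least 1 edge more than 100 kb from any fetal boundary (red) and the other 1802 (grey). The red line lies above the grey one at short lengths, with 13.6% against 4.66% of TADs under 300 kb, and the medians are 640 and 790 kb.

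Of the 281 boundaries, 268 (95.4%, 92.2 to 97.5) parted 2 adjoining adult TADs, against 2229 of all 2391 adult boundaries (93.2%). The other 13 were 7 starts and 6 ends at stretches without an adult TAD or at the last TAD of a chromosome. Most stood singly, and 203 had no other such boundary as their neighbour in the adult list. The rest formed 33 runs of 2 and 4 runs of 3 with no other adult boundary between. Runs of 3 lay in the fetal TADs of chromosomes 7 and 11 described above, beyond the last fetal TAD of chromosome 9, and on chromosome X at 16455000, 18395000 and 18925000. The run on chromosome X crossed the fetal boundary at 18035000, which lay inside an adult TAD of 1940 kb, so 3 adult boundaries and 1 fetal boundary there were without partners.

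The 11 boundaries outside fetal TADs were of 3 kinds. On chromosome 9 the fetal list ended at 119855000, and the adult boundaries at 122255000, 122635000 and 124075000 closed adult TADs of 2400, 380 and 1440 kb beyond that end. Another 5 lay 140 to 220 kb from the edge of a fetal stretch without a TAD and were the outermost edge of adult TADs there. These were 101285000 on chromosome 2, 44205000 on chromosome 4, 23085000 on chromosome 8, 35845000 on chromosome 11 and 83815000 on chromosome X. There the adult TADs reached farther into a stretch of 3680 to 7630 kb that has no fetal TAD. The last 3 stood within such stretches between adjoining adult TADs. On chromosome 4 the boundary at 24135000 parted adult TADs of 2200 and 2430 kb within a fetal stretch of 4610 kb. On chromosome 11 the boundary at 11895000 parted TADs of 590 and 4470 kb in a stretch of 5150 kb. On chromosome 13 the boundary at 93515000 parted TADs of 2470 and 1000 kb in a stretch of 3460 kb. At these 3 places the adult TADs together spanned nearly the same stretch that the fetal list leaves empty.

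In the opposite direction, 287 of 2393 fetal boundaries, or 12.0%, lay more than 100 kb from any adult one. The number was thus nearly the same, but fewer of the adult ones lay where the other list has no TAD. Of these fetal boundaries, 50 (17.4%, 13.2 to 22.3) lay in adult stretches without a TAD, against 11 of the 281 adult ones (8 in stretches between fetal TADs and 3 beyond the last). The adult TADs covered less of the genome, 2210 Mb against 2294 Mb, and so left more room outside TADs. Over all boundaries, 81 of 2393 fetal ones (3.38%, 2.70 to 4.19) lay in stretches between adult TADs, and 41 of 2391 adult ones (1.71%, 1.23 to 2.32) in stretches between fetal TADs. Inside TADs of the other list, both directions looked alike in the kept ends, with 171 of 237 fetal boundaries (72.2%, 66.0 to 77.8) in adult TADs that kept both ends. Of the 214 adult TADs that held such a fetal boundary, 139 (65.0%, 58.2 to 71.3) held 1 and had both ends kept. Among the fetal TADs this was 153 of 239 (64.0%), so division of a TAD was about as common in either direction. Of the 63 fetal boundaries at up to 200 kb from an adult one, 24 (38.1%, 26.1 to 51.2) had a nearest adult boundary without a partner, and of the 114 beyond 400 kb, 9 (7.89%, 3.67 to 14.5) had. That contrast is partly built in here too. The median distance was 390 kb (330 to 450) for the fetal boundaries and 460 kb (410 to 480) for the adult ones, with overlapping intervals. At over 300 and up to 400 kb there were 28 fetal boundaries and at up to 500 kb 35, where the adult counts were 19 and 49. These differences were not tested, as neither list has replicates.

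By chromosome, the share of adult boundaries without a fetal partner ranged from 4.21% to 29.1%, with a median of 10.4% over the 20 chromosomes. Chromosome 11 had 32 of 110 (29.1%, 20.8 to 38.5), chromosome 19 had 15 of 59 (25.4%, 15 to 38.4) and chromosome X had 24 of 128 (18.8%, 12.4 to 26.6). The lowest were chromosome 15 with 4 of 95 (4.21%, 1.16 to 10.4), chromosome 3 with 6 of 136 (4.41%, 1.64 to 9.36) and chromosome 12 with 5 of 105 (4.76%, 1.56 to 10.8). Per 10 Mb of eligible interior, chromosome 11 had 3.45 (2.33 to 4.93) and chromosome 19 had 3.09 (1.73 to 5.10). Chromosome X had 2.53. The lowest were chromosome 3 with 0.508 (0.186 to 1.11), chromosome 15 with 0.569 (0.155 to 1.46) and chromosome 12 with 0.599. The same chromosomes were thus highest and lowest when the room inside fetal TADs was taken into account. Chromosomes 11, 19 and X kept their order, while chromosomes 3 and 15 changed places, with overlapping intervals. These chromosomes were picked for their extreme shares, so the gap between their intervals is no test. The fetal list was the sparser on chromosome 11, with 99 boundaries against 110 adult, and on chromosome 19, with 50 against 59. On both chromosomes the lists have equally many boundaries with a partner, so this gap restates the counts of those without one. Fetal and adult TAD medians, which partly follow from the same counts, were 990 and 835 kb on chromosome 11, and 1080 and 840 kb on chromosome 19. The arrangement differed between the leading chromosomes. On chromosome 19, 13 of the 15 lay in fetal TADs with both ends kept, while on chromosome 11 this held for 15 of 30 inside fetal TADs. Without chromosomes 11 and 19 the share was 10.5%, from 234 of 2222.

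Chromosomes with many such adult boundaries did not all have many fetal ones without an adult partner. On chromosome 19 there were 15 adult (25.4%) and 6 fetal ones (12.0%, 4.53 to 24.3). Chromosome 11 was high in both, with 32 adult (29.1%) and 21 fetal ones (21.2%, 13.6 to 30.6), the highest fetal share of the 20 chromosomes. On chromosome 14 the order was the opposite, with 9 adult (9.57%, 4.47 to 17.4) and 22 fetal (20.8%, 13.5 to 29.7). Adult boundaries without a partner were the more numerous on 8 chromosomes, the fewer on 10 and equal on 2.

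**Figure D5:**
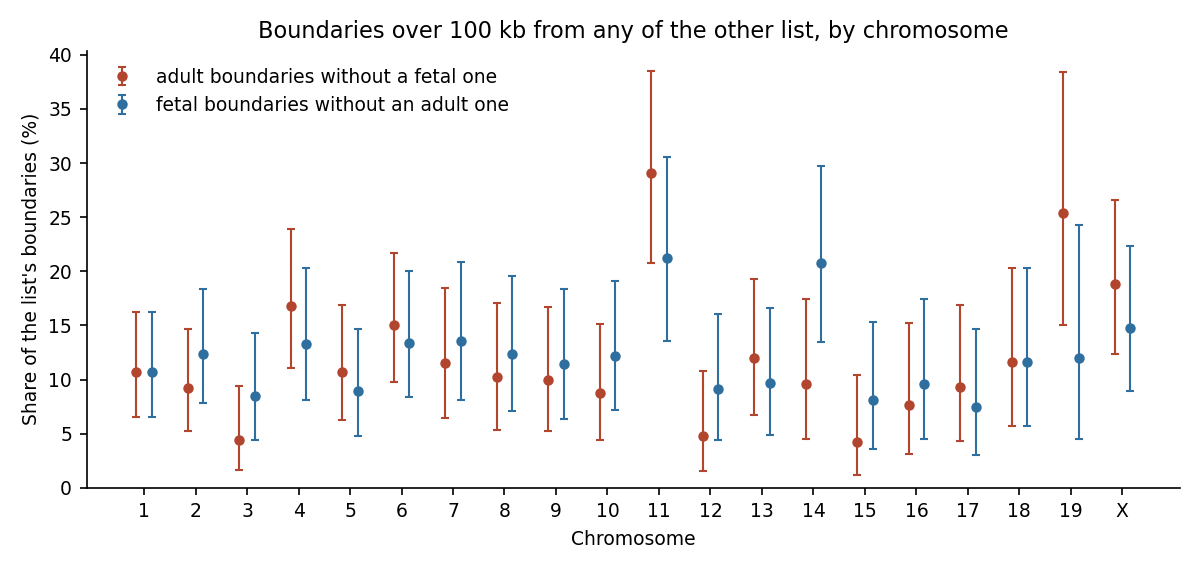
Share of a list's boundaries, in percent, that had no boundary of the other list within 100 kb, by chromosome, with exact Clopper-Pearson intervals as bars. Red points are adult boundaries without a fetal partner and blue points fetal boundaries without an adult partner. The highest red points are those of chromosomes 11 (29.1%) and 19 (25.4%). The highest blue point is also that of chromosome 11 (21.2%), and on chromosome 14 the blue point (20.8%) lies above the red one (9.57%).

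Along the chromosomes the boundaries were spread widely. When each chromosome was divided into 3 equal parts, they made up 11.5% (9.32 to 14.0) of adult boundaries in the first, 10.4% (8.31 to 12.7) in the second and 13.2% (11 to 15.7) in the last. Neighbouring ones were a median of 4480 kb apart, and 34 of the 261 gaps were under 1000 kb. Of 245 full windows of 10 Mb, counted from the first adult TAD of each chromosome, 104 held none, 68 held 1 and 43 held 2. The window with most was on chromosome 19 from 3005001 to 13005000, where 6 of 12 adult boundaries had no fetal partner. They lay at 3595000, 5025000, 8725000, 9235000, 10595000 and 12965000. The boundary at 3595000 parted adult TADs of 590 and 820 kb in a fetal TAD of 1390 kb. Those at 8725000 and 9235000 enclosed an adult TAD of 510 kb in a fetal TAD of 2250 kb. Next came 2 windows with 5 each, on chromosome 11 from 63005001 to 73005000 and on chromosome 6 from 113005001 to 123005000, of 12 and 16 adult boundaries.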

How the data were processed

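The authors deposited 1 TAD list per cell type, named in the labels by both samples of that type, with chromosome, start and end in base pairs and no score. The submitters' processing notes name HiC-Pro, GSNAP and mm9. Not given in the sources used here are the TAD caller, its settings, any pooling and the depth, and all of these could move boundaries.

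Boundaries were the distinct starts and ends (2391 adult, 2393 fetal; none of the TADs of a list overlap). An adult boundary was taken when no fetal one lay within 100000 bp. Python 3.11.15, NumPy 2.4.6, pandas 2.3.3 and SciPy 1.17.1 were used. Shares carry 95% exact intervals and medians order-statistic intervals. On simulated data, a partner list was made by removing 192 adult boundaries and moving the rest by less than the 100 kb limit. The 192, all chosen well apart from their neighbours, and no others were recovered. These settings fixed that outcome, so it checks the code alone. The boundaries, regions and alternatives were chosen with earlier results of these data known. Named were those outside fetal TADs, the 8 farthest inside, 3 on each side of 100 kb, the 5 fetal TADs with most (ties by length), the longest runs, and the 3 highest and 3 lowest chromosomes; the windows were named after their values were seen. Genes and sequence were planned and not analysed here, for want of a matching build.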

Additional observations from a re-analysis of the deposited data

How the results depend on the processing

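Alternatives were distances of 40, 50, 150 and 200 kb, autosomes only, TADs of at least 200 kb, boundaries between adjoining TADs, starts or ends alone and merged boundaries; leaving out chromosome 11 or chromosomes 11 and 19, each alternative for the share with both ends kept, and other distances for the shares of single chromosomes were added after seeing the data. Of 60 values, 51 stayed within their interval or, for counts, within 1.5 times, and 9 moved, each with the distance. The settings other than the distance reuse most of the same boundaries, so their values could hardly move and the tally is no measure of stability. The median distance to a fetal boundary was 240 kb at a limit of 40 kb, 320 kb at 50 kb and 510 kb at 200 kb, which follows from the limit itself. The median length of fetal TADs holding such a boundary was 1195 kb at 40 kb and 1460 kb at 200 kb. The share with both ends kept was 45.7%, 52.6%, 76.6% and 81.0% at 40, 50, 150 and 200 kb. The number of adult boundaries without a partner was 395 at 40 kb and 213 at 200 kb. On chromosome 11 the share was 44.5% at 40 kb. No paired analysis was possible because each cell type had a single list for both samples, and no replicate could be left out. Gene, GC and CTCF alternatives were not run, for want of a matching build.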
